A study of Mus musculus with 12 samples.

Results

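Small leucine-rich proteoglycans are secreted matrix proteins, and 9 of their genes are described here across mouse embryonic fibroblasts that express a mutant of the antioxidant regulator NRF2 or of its inhibitor KEAP1. The 9 genes, Bgn, Dcn, Aspn, Fmod, Lum, Prelp, Omd, Ogn and Podn, were taken by symbol from 23186 genes listed in the deposited tables, and all 9 are among the 20844 genes listed in both. The family was chosen by measured values, since Aspn is among the largest falls in Keap1 R554Q cells, so the Keap1 values below are a description, and the Nrf2 comparison, which shares no library with it, is the tested comparison. The members were also chosen with earlier results of both comparisons known, so the p-values of the Nrf2 comparison are not independent of that choice.

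The core protein of the family is a curved stack of leucine-rich repeats, to which chondroitin or dermatan sulfate chains (as in biglycan and decorin) or keratan sulfate chains (as in lumican and fibromodulin) can be attached. Fibroblasts secrete these proteins into the matrix, where several bind collagen and set the width and spacing of its fibrils. Decorin, biglycan, asporin and fibromodulin also bind TGF-beta, and soluble biglycan and decorin are known to engage receptors on cells.

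RNA came from embryonic fibroblasts of embryonic day 13.5 to 14.5, collected 4 days after infection at a multiplicity of 500, in 12 libraries with 3 in each of 4 groups. Cells homozygous for LSL-Nrf2D29H received adenoviral Cre, which switches on the D29H allele (the Nrf2 D29H group), or empty adenovirus, which leaves Nrf2 silenced (labelled Nrf2 knockout). Cells homozygous for CA-Keap1R554Q received adenoviral Cre (Keap1 R554Q) or empty adenovirus (Keap1 wild type, where the allele acts as wild type). Every group thus carries an inducible allele and an adenovirus, no group combined Cre with a wild-type allele, and the effect of Cre and that of the mutant allele cannot be told apart. The labels do not say whether replicates came from separate embryos or cultures, so p-values measure the spread between these libraries, which may be technical.

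Libraries held 14963004 to 23818477 counted reads, and no pair of replicates was alike within counting noise (chi-square over genes of 4.66 to 23.2 per degree of freedom). Pairs with labelled-knockout replicate 3, the smallest library, had 21.9 and 14.2, against 4.92 for the other pair. Those with D29H replicate 1 had 23.2 and 15.3, against 9.84, and those with R554Q replicate 3 had 21.8 and 12.3, against 7.97. Keap1 wild-type pairs had 4.66 to 7.32. Nfe2l2, which encodes NRF2, was at 40.7 to 46.4 CPM (reads scaled to library size) in the libraries labelled knockout and at 49.6 to 56.6 CPM in D29H, with a log2 change of 0.31 (SE 0.10, adjusted p 0.0713). Reads of the gene do not show whether the allele is silenced, so the group is called labelled knockout throughout. Nqo1, a target of NRF2, was at 7.61 to 10.8 CPM in that group and 32.9 to 33.5 CPM in Keap1 wild type, a log2 change of -1.89 (SE 0.12, adjusted p 1.7e-08). With Cre, its log2 changes were 3.74 (SE 0.13, adjusted p 2.5e-16) in the Nrf2 comparison and 3.41 (SE 0.10, adjusted p 1.1e-13) in the Keap1 comparison. Of 9 fibroblast markers, all 9 had reads in every library, and their summed level was 4418 to 5699 RPKM, the CPM divided by the listed gene length in kilobases. Of 4 tendon markers, Scx and Tnmd were at 30.3 and 12.5 RPKM in Keap1 wild type and Kera had at most 1 read in a library, and the muscle list held Acta1 at 233 and Des at 4.40 RPKM beside at most 1 read of Myog in that group.

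Of the 9 genes, 7 lie beside another member. Aspn (ENSMUSG00000021388; chromosome 13, 49544443 to 49567557, plus strand, GRCm38), Omd (ENSMUSG00000048368; 49582766 to 49592609, plus strand) and Ogn (ENSMUSG00000021390; 49608071 to 49624500, plus strand) follow each other with gaps of 15.2 and 15.5 kb. Dcn (ENSMUSG00000019929; chromosome 10, 97479500 to 97518162, plus strand) and Lum (ENSMUSG00000036446; 97565501 to 97572703, plus strand) are 47.3 kb apart, and Prelp (ENSMUSG00000041577; chromosome 1, 133910304 to 133921414, minus strand) and Fmod (ENSMUSG00000041559; 134037254 to 134048277, plus strand) are 115.8 kb apart. In GENCODE M21, 0 protein-coding genes lie wholly between the neighbours of any of these 4 gaps. Bgn (ENSMUSG00000031375; 73483602 to 73495933, plus strand) is on chromosome X, and Podn (ENSMUSG00000028600; 108014791 to 108096445, minus strand) is on chromosome 4. The centromere gene Cenpp spans the chromosome 13 cluster on the opposite strand, and use of strand in counting is not given in the sources used here. Exons of Cenpp share 7 bases with the 2354 exon bases of Aspn and 0 with those of Omd and Ogn, and over the 12 libraries the reads of Cenpp came to 10.9% of those of Aspn, 14.3% of those of Ogn and 263% of those of Omd. The antisense gene Gm15851 shares 350 of the 3615 exon bases of Prelp (9.68%) and had 2 reads in all. Scp2 overlaps Podn on the same strand with 0 shared exon bases, and its reads came to 474% of those of Podn. How many reads of these neighbours, if any, entered the members' counts was not tested.

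Promoter windows of 250 bases before to 50 after the start site were held for 7 of the 9 genes (RefSeq, GRCm38.p6), in 8 windows. Dcn and Lum had none. The RefSeq start sites of Podn, 108030986 and 108031954, lie inside the listed gene, far from its listed start at 108096445. That of Omd is 49582462, against a listed start at 49582766. The windows of Aspn and Prelp are shown because these are the genes called in the tested comparison below. Capitals mark the match to TATAAA on the gene's own strand, of which the Prelp window holds none.
Aspn promoter, chr13:49544193-49544492, plus strand: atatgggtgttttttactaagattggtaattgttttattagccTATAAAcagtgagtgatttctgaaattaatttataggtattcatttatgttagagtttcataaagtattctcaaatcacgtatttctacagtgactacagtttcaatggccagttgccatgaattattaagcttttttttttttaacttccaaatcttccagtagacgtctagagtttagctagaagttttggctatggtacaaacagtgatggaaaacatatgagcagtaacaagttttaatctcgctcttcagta
Prelp promoter, chr1:133921352-133921651, minus strand: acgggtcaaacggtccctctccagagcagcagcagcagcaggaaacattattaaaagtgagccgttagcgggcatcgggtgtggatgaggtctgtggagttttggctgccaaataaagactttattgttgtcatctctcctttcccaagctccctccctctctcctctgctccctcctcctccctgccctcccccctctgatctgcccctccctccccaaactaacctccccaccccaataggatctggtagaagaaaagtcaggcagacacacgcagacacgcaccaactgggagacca
The NRF2 core motif TGACNNNGC, searched on both strands, was in 0 of the 8 windows, against 12.4% of 32851 mouse promoter windows of the same length. The AP-1 motif TGANTCA, which can lie within the NRF2 motif and reads the same on both strands, was in 0 of 8, against 7.81%. TATAAA on the gene's strand was in 2 of the 8 windows, against 8.32% of all, and begins at position -207 from the Aspn start site and -227 from that of Ogn. The Aspn window is 31% G and C, the Omd window 37.7%, and the Prelp window 55.3%.

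Levels per gene length set the members in order. Levels in RPKM were scaled over the 12 libraries. Bgn, the gene for biglycan, was far above the others, at 511 ± 48.9 RPKM in labelled knockout, 444 ± 30.1 in D29H, 517 ± 15.7 in Keap1 wild type and 482 ± 51.4 in R554Q (SD, n = 3 each). Its mean over the 12 libraries ranked 148th of 14794 expressed genes, and 86.1% to 92.7% of the family's reads in each library were from Bgn. Aspn, Ogn and Dcn formed a middle tier. In labelled knockout they stood apart, with Aspn at 30.5 ± 0.66, Ogn at 22.3 ± 3.67 and Dcn at 10.3 ± 0.45 RPKM. In D29H they kept that order, at 23.1 ± 3.87, 17.1 ± 2.37 and 8.63 ± 1.36 RPKM, although the lowest Aspn library (19.8) was next to the highest Ogn library (19.7). In R554Q the ranges of Aspn, Ogn and Dcn overlapped, at 11.2 ± 0.97, 9.15 ± 1.87 and 10.8 ± 2.17 RPKM, so that no order among the 3 can be read there. In Keap1 wild type Aspn, at 20.5 ± 1.56 RPKM, was above Dcn and Ogn, which overlapped at 12.6 ± 1.32 and 11.8 ± 1.52 RPKM. Fmod, Prelp and Podn lay between 2.23 and 6.80 RPKM in every library, and Lum and Omd between 0.51 and 3.07 RPKM. Podn was at 3.73 ± 0.34 RPKM in labelled knockout, 4.54 ± 0.41 in D29H, 2.59 ± 0.20 in Keap1 wild type and 2.74 ± 0.44 in R554Q, with every Nrf2 library above every Keap1 library. Omd was likewise higher in both Nrf2 groups (1.68 ± 0.19 and 1.72 ± 0.22 RPKM in labelled knockout and D29H) than in Keap1 wild type and R554Q (0.93 ± 0.19 and 0.95 ± 0.39 RPKM). Lum was at 2.44 ± 0.55, 2.17 ± 0.34, 1.28 ± 0.35 and 0.89 ± 0.26 RPKM in the same order of groups. The lowest read count of a member was 16, for Omd in R554Q replicate 1, so the counting error of Omd is the largest of the family.

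**Figure D1:**
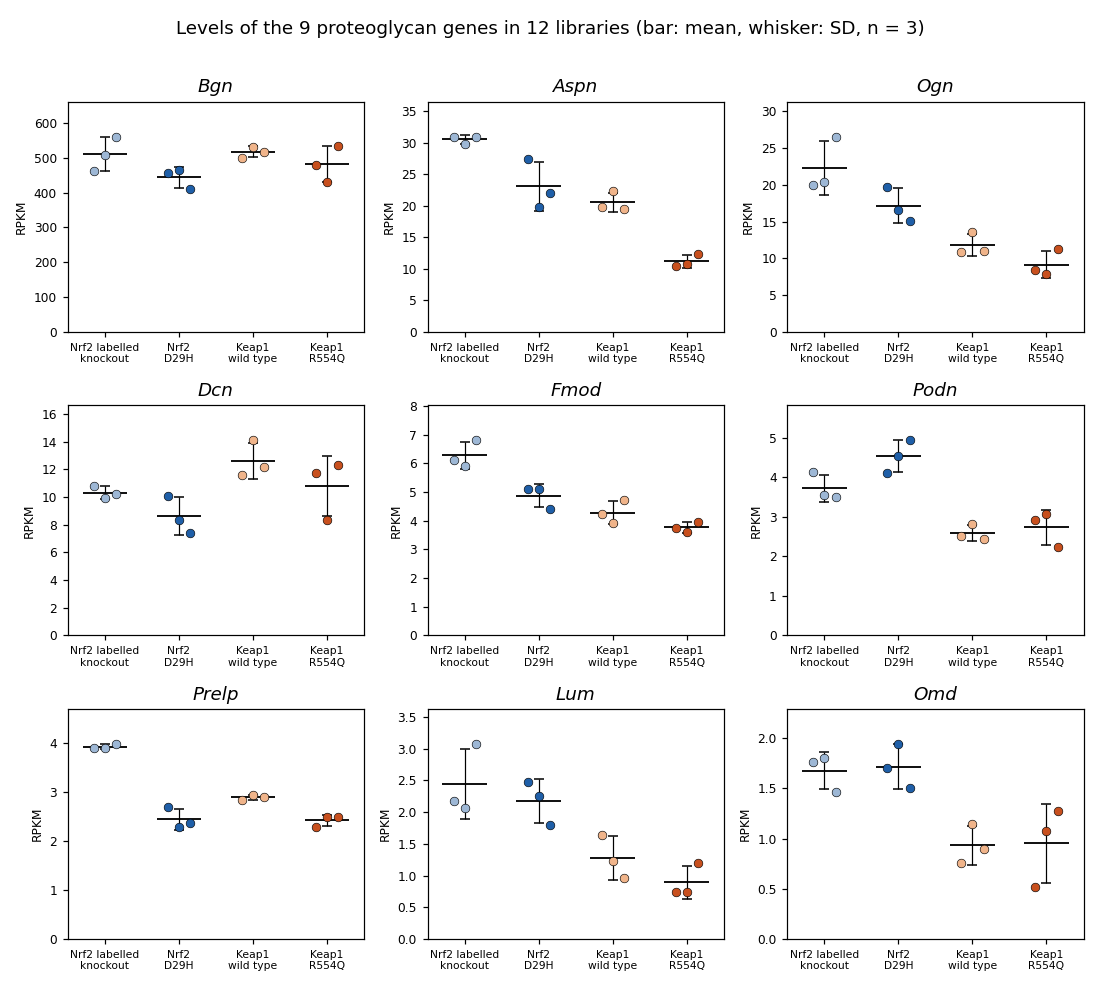
RPKM (linear axis from 0, a scale of its own for each gene) of the 9 genes in 12 libraries: points are libraries, bars the group mean and whiskers the SD (n = 3). The Aspn libraries lie at 29.8 to 31.0 RPKM in labelled knockout and at 10.5 to 12.3 RPKM in R554Q, and Prelp separates labelled knockout from the other 3 groups.

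Nrf2 D29H libraries were first set against labelled knockout, which bears on the effect of switching on the mutant NRF2. Of the 9 members, all of which passed the filter on low counts, 2 fell (Prelp and Aspn) and 0 rose at an adjusted p under 0.05 in edgeR's quasi-likelihood test. DESeq2 and limma gave the same counts of 2 and 0. Over all 14370 genes tested, 1.28% were called lower and 3.47% higher. At an unadjusted p under 0.05, 4 members were lower and 1 was higher, against 10.3% and 12.6% of all genes. The log2 fold change, or log2 change, is the difference of log2 levels between groups; it was below 0 for 7 of the 9, with a median of -0.25, against 49.9% of all genes and a median of 0.00 over them.

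Prelp, whose product anchors basement membranes to collagen, changed most. Its libraries were at 3.89, 3.89 and 3.98 RPKM in labelled knockout and at 2.68, 2.28 and 2.37 RPKM in D29H. Every D29H library was below every labelled-knockout library, and the gap was wider than the spread within either group. D29H held 62.7% of the control level, a log2 change of -0.67 (SE 0.13, adjusted p 0.00384), and the call held in all 16 alternatives run, with adjusted p of 9.7e-05 to 0.0457. The authors' deposited table gives Prelp a log2 fold change of -0.56 with an adjusted p of 0.00106. How the deposited fold changes were computed is not given in the sources used here, so their sizes cannot be compared with those of edgeR.

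Aspn encodes asporin, a collagen-binding member that is known to restrain TGF-beta signalling. It was at 30.8, 29.8 and 31.0 RPKM in labelled knockout and at 27.4, 19.8 and 22.1 RPKM in D29H. The groups did not overlap, but D29H replicate 1 was close to the controls and the spread in D29H was wide. The fall, to 76.0% of the control level, had a log2 change of -0.40 (SE 0.11, adjusted p 0.0365). Its call rests on single libraries: the adjusted p was 0.265 without D29H replicate 2, 0.238 without D29H replicate 3, 0.052 and 0.0745 without labelled-knockout replicates 1 and 2, and 0.00299 without D29H replicate 1. The authors' deposited table gives -0.35 with an adjusted p of 0.0254.

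Ogn, which encodes osteoglycin, and Fmod, which encodes the fibril regulator fibromodulin, did not pass the threshold although their groups did not overlap. Ogn libraries were at 20.0, 20.4 and 26.5 RPKM in labelled knockout and at 19.7, 16.6 and 15.1 RPKM in D29H, with a log2 change of -0.37 (SE 0.12, adjusted p 0.0702). The highest D29H library was just below the lowest control, and the log2 change of Ogn ranged from -0.48 to -0.22 when a single library was dropped. Fmod libraries were at 6.11, 5.90 and 6.80 RPKM in labelled knockout and at 5.09, 5.12 and 4.40 RPKM in D29H, with a log2 change of -0.35 (SE 0.12, adjusted p 0.0794). Non-overlapping groups with D29H lower were thus seen for 4 of 9 members, Prelp, Aspn, Ogn and Fmod, against 13% of all genes tested, and with D29H higher for 0 of 9, against 12.4%.

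Of the remaining members, 0 passed the threshold in edgeR, DESeq2 or limma. Dcn, the gene for decorin, was at 10.8, 9.90 and 10.2 RPKM in labelled knockout and at 10.1, 8.37 and 7.42 RPKM in D29H, and D29H replicate 1 lay among the controls. It had a log2 change of -0.25 (SE 0.12, adjusted p 0.227), and Bgn one of -0.19 (SE 0.12, adjusted p 0.358). When a single library was dropped, Dcn ranged from -0.38 to -0.14 and Bgn from -0.26 to -0.11. The 2 genes whose value was above 0 were Podn, at 0.29 (SE 0.12, adjusted p 0.162), and Omd, at 0.03 (SE 0.22, adjusted p 0.945). Podn encodes podocan, and its libraries were at 4.12, 3.55 and 3.51 RPKM in labelled knockout and at 4.12, 4.55 and 4.94 RPKM in D29H, so that the groups touched at 1 library each. Lum, which encodes lumican of cornea and skin, had a log2 change of -0.14 (SE 0.19, adjusted p 0.706). Leaving out D29H replicate 1 gave 5 members called lower (Aspn, Prelp, Ogn, Fmod and Dcn), while the whole table went from 184 of 14370 to 998 of 14608 genes called lower. Leaving out D29H replicate 2 or 3 or labelled-knockout replicate 2 gave 1 member, Prelp, with 9, 10 and 75 genes called lower over the whole table. Without labelled-knockout replicate 1, 2 members (Prelp and Ogn) were called lower among 314 genes, and without replicate 3 of that group 2 (Prelp and Aspn) among 120.

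In these bulk libraries, fewer cells of a type and less RNA per cell cannot be told apart. The summed level of the 9 fibroblast markers was 4616 to 4820 RPKM in D29H and 5197 to 5699 in labelled knockout, without overlap. The means differed most for Vim (1510 against 1943 RPKM), Col1a1 (1534 against 1743) and Col1a2 (590 against 697), while Pdgfra (7.74 against 6.23), Pdgfrb (38.4 against 37.8) and Fn1 (597 against 581) were higher in D29H. The 4 tendon markers summed to 46.4 to 63.6 RPKM in D29H and 56.6 to 68.9 in labelled knockout, with Kera at 0 reads in labelled knockout. Summed levels of the 5 macrophage markers listed of 6 were 84.9 to 93.5 and 62.3 to 89.4 RPKM, with the mean of Lyz2 higher in D29H (77.2 against 65.5) and those of the other 4 lower (Csf1r 3.75 against 4.01, Cd68 6.04 against 6.62). The skeletal muscle markers, 4 listed of 5, summed to 65.8 to 82.9 RPKM in D29H and 84.6 to 94.4 in labelled knockout without overlap, nearly all of it Acta1 (69.0 against 83.9). The 6 osteoblast markers also did not overlap, at 5.39 to 7.96 RPKM in D29H and 4.99 to 5.24 in labelled knockout, mostly Runx2 (6.17 against 4.95). Chondrocyte markers, 6 listed of 7, touched at the edge, at 14.1 to 15.9 RPKM in D29H and 15.8 to 17.9 in labelled knockout. Among them Sox9 (8.43 against 9.15), Col2a1 (4.71 against 6.19) and Acan (0.50 against 0.64) were lower in D29H, and Col11a2 (1.17 against 0.66) was higher. The part of these shifts in the falls of Prelp and Aspn was not tested.

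In the Keap1 comparison the values that led to the choice of the family are given as a description. Aspn was at 19.8, 22.3 and 19.5 RPKM in wild type and at 10.5, 10.7 and 12.3 RPKM in R554Q, so every R554Q library lay far below every wild-type library. R554Q held 54.8% of the wild-type level, a log2 change of -0.87 (SE 0.09). Among the 339 genes called lower in this comparison Aspn had the 12th lowest log2 fold change. Of the 9 members 1, Aspn, was called lower and 0 higher in edgeR, beside 2.40% and 3.77% of the 14128 genes tested. At an unadjusted p under 0.05, 2 members were lower and 0 higher, beside 11.4% and 12.8% of all genes.

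The other 8 members had smaller values in R554Q. Ogn, the neighbour of Aspn on chromosome 13, was at 10.9, 13.6 and 11.0 RPKM in wild type and at 8.36, 7.81 and 11.3 RPKM in R554Q. R554Q replicate 3 lay within the wild-type range, and the log2 change was -0.36 (SE 0.13). Omd, which lies between Aspn and Ogn, had a value of 0.05 with a wide error (SE 0.32). Lum libraries were at 1.64, 1.23 and 0.96 RPKM in wild type and at 0.75, 0.74 and 1.19 RPKM in R554Q, an overlap at R554Q replicate 3, with a value of -0.51 (SE 0.26). That value of Lum ranged from -0.77 to -0.28 when a single library was dropped. Prelp was at -0.24 (SE 0.12), Dcn at -0.21 (SE 0.13), Fmod at -0.17 (SE 0.11), Bgn at -0.09 (SE 0.09) and Podn at 0.09 (SE 0.14). Prelp was the only member other than Aspn whose groups did not overlap, with 2.83, 2.94 and 2.90 RPKM in wild type and 2.29, 2.50 and 2.48 RPKM in R554Q. With an offset for GC content and gene length, an alternative chosen after seeing the data, the values were -0.61 for Aspn, -0.14 for Ogn, -0.33 for Prelp, 0.03 for Dcn, -0.05 for Podn and 0.33 for Omd, so Dcn and Podn changed sign. Groups did not overlap, with R554Q lower, for 2 of 9 members, beside 13.5% of all genes, and with R554Q higher for 0, beside 14%. Cenpp, on the strand opposite Aspn, had a log2 change of -0.42 (SE 0.19) in this comparison and -0.02 (SE 0.17) in the Nrf2 comparison, at 69 to 131 reads a library in the Keap1 groups. Macrophage markers summed to 39.0 to 48.3 RPKM in R554Q and 57.7 to 66.1 in wild type. That sum is nearly all Lyz2 (37.8 against 55.0 RPKM), with Ptprc (0.21 against 0.29) and Fcgr1 (0.11 against 0.26) also lower in R554Q and Csf1r (1.57 against 1.55) and Cd68 (4.05 against 3.57) not lower, and the skeletal muscle markers summed to 194 to 223 RPKM in R554Q and 225 to 250 in wild type, without overlap. Pparg, of the adipocyte list, was at 130 to 148 reads in R554Q and 75 to 100 in wild type, while that list's sums overlapped at 20.1 to 22.0 and 18.9 to 20.9 RPKM. Tendon sums overlapped, at 38.2 to 47.3 RPKM in R554Q and 41.1 to 49.3 in wild type, with Tnmd lower in R554Q (8.61 against 12.5) and Scx higher (32.9 against 30.3). Fibroblast sums overlapped at 4418 to 4922 and 4640 to 5237 RPKM, with Twist2 lower (4.08 against 5.24) and Pdgfra higher (8.37 against 6.56). The part of these markers in the members' values was not tested.

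Set side by side, the log2 fold changes of Aspn were -0.40 (SE 0.11) in the Nrf2 comparison and -0.87 (SE 0.09) in the Keap1 comparison, and those of Prelp were -0.67 (SE 0.13) and -0.24 (SE 0.12). The member with the lower value thus differed between the comparisons: Prelp in the Nrf2 comparison and Aspn in the Keap1 comparison. Ogn was at -0.37 and -0.36, with ranges of -0.48 to -0.22 and -0.53 to -0.25 when a single library was dropped. The offset for GC content and gene length gave -0.14 in the Keap1 comparison. These differences between the comparisons were not tested, because the Keap1 values led to the choice of the family. The control groups are also unlike: labelled knockout in the Nrf2 comparison and wild type in the Keap1 comparison. Aspn and Prelp themselves differed between these control groups, as given below.

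**Figure D2:**
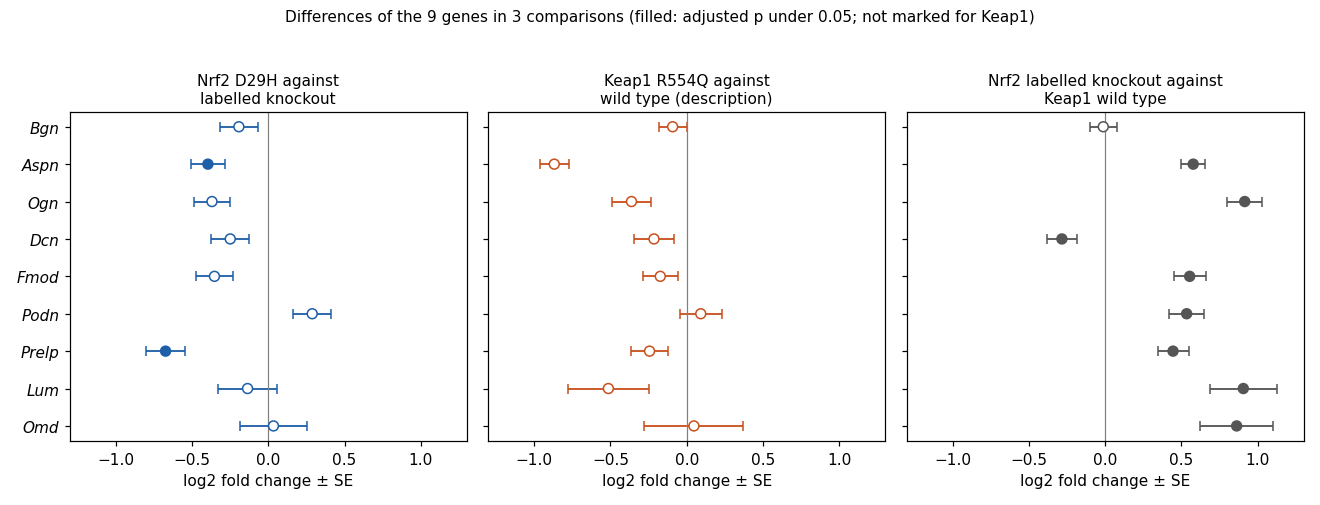
Log2 fold changes (points) with standard errors (whiskers) of the 9 genes in 3 comparisons; filled points have an adjusted p under 0.05 in edgeR, and calls are not marked for the Keap1 comparison. Prelp (-0.67) and Aspn (-0.40) are filled in the Nrf2 panel, Aspn is lowest (-0.87) in the Keap1 panel, and 7 members lie above 0 with filled points in the panel of the controls.

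The groups without Cre also differed. Between the groups that received empty virus, labelled Nrf2 knockout and Keap1 wild type, 7 of the 9 members were higher in labelled knockout and 1, Dcn, was lower (edgeR, adjusted p under 0.05), against 11.7% and 11.4% of the 14146 genes tested. Genotype, culture and set of libraries vary together here and cannot be told apart, and the wild-type libraries also entered the comparison that led to the choice of the family. Ogn and Lum had the largest values. Ogn was at 20.0, 20.4 and 26.5 RPKM in labelled knockout against 10.9, 13.6 and 11.0 RPKM in wild type, a log2 change of 0.91 (SE 0.12, adjusted p 3.0e-05). No library of either group lay in the range of the other. Lum was at 0.91 (SE 0.22, adjusted p 0.00688), Omd at 0.86 (SE 0.24, adjusted p 0.0151) and Aspn at 0.58 (SE 0.08, adjusted p 7.2e-05). Fmod, Podn and Prelp had values of 0.55, 0.53 and 0.44 (SE 0.11, 0.12 and 0.10), with adjusted p of 0.00129, 0.00326 and 0.00468. Bgn, the most abundant member, had a log2 change of -0.01 (SE 0.09, adjusted p 0.942).

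Dcn went against the other called members, with 10.8, 9.90 and 10.2 RPKM in labelled knockout and 11.6, 14.1 and 12.1 RPKM in wild type. Its groups did not overlap, and the log2 change was -0.28 (SE 0.10, adjusted p 0.0495). This call is at the edge of the threshold: it held in 4 of 16 alternatives, with adjusted p of 0.0298 to 0.212. Leaving out any library but labelled-knockout replicate 3 ended it, with an adjusted p of 0.055 to 0.212. The call of Omd was lost without wild-type replicate 1 (adjusted p 0.081), wild-type replicate 3 (0.0567) or labelled-knockout replicate 2 (0.0656). Groups did not overlap for 7 members with labelled knockout higher and for 1 with it lower, against 18.9% of all genes in either direction.

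Marker levels moved with this difference too. The 4 tendon markers summed to 56.6 to 68.9 RPKM in labelled knockout and 41.1 to 49.3 in Keap1 wild type, and the 6 chondrocyte markers listed of 7 to 15.8 to 17.9 and 9.99 to 12.7, with Matn1 at 0 or 1 read. Skeletal muscle markers, 4 listed of 5, went the other way, at 84.6 to 94.4 and 225 to 250 RPKM. Nearly all of that sum was Acta1, at 83.9 and 233 RPKM, and Myog had at most 2 reads in a library. The macrophage sums, 62.3 to 89.4 and 57.7 to 66.1 RPKM, overlapped, but Csf1r (4.01 against 1.55 RPKM), Cd68 (6.62 against 3.57), Ptprc (0.65 against 0.29) and Fcgr1 (0.50 against 0.26) were higher in labelled knockout in their means. Epithelial markers summed to 2.14 to 2.71 and 3.96 to 5.20 RPKM, without overlap, with Krt18 at 1.88 and 3.57 RPKM. Osteoblast markers summed to 4.99 to 5.24 and 5.03 to 5.55 RPKM. The part of these marker levels in the differences of the members was not tested.

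The summed reads of the 8 members other than Bgn are given by group. They came to 203 ± 12.3 CPM in labelled knockout, 162 ± 17.4 in D29H, 139 ± 9.97 in Keap1 wild type and 104 ± 9.90 in R554Q (SD, n = 3 each). Without Aspn, whose Keap1 values led to the choice of the family, the other 7 members summed to 131 ± 11.1, 108 ± 9.48, 91.2 ± 6.38 and 77.4 ± 7.88 CPM in the same order. These sums are a description and were not tested.

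The members varied together to different degrees over the 12 libraries. Pearson r of log2 CPM was 0.94 for Lum and Ogn, 0.91 for Fmod and Ogn and 0.91 for Aspn and Ogn, while Dcn and Podn had -0.75. These are descriptions, since libraries of a group share their genotype and virus and differences between groups enter the values. Pairs on the same chromosome had a median r of 0.77 (5 pairs) and pairs on different chromosomes 0.49 (31 pairs), but Dcn and Lum, neighbours on chromosome 10, had -0.27. After each group's mean was taken away, the medians were 0.34 and 0.27. Aspn and Prelp then had an r of 0.86, Bgn and Ogn 0.85, and Podn had values below 0 with all 8 other members, from -0.76 with Bgn to -0.25 with Omd. Over 14794 genes such deviations also followed GC content (r of -0.31 to 0.24 by library) and the log of gene length (-0.15 to 0.24). The part of these trends in the members' values was not tested, and no r is given for pairs of other genes.

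**Figure D3:**
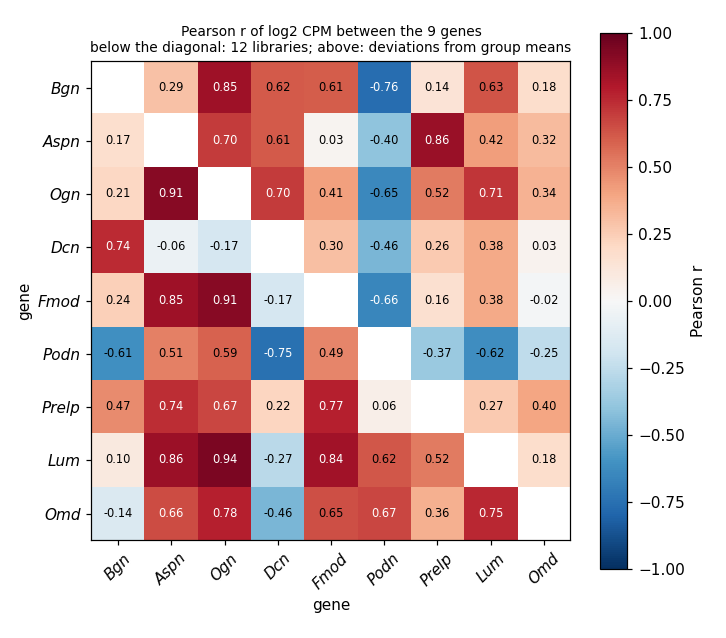
Pearson r of log2 CPM for each pair of the 9 genes, over 12 libraries (below the diagonal) and for deviations from the 4 group means (above the diagonal), colour from -1 to 1. Aspn, Ogn, Fmod and Lum form a block of high values below the diagonal (0.84 to 0.94), and Podn has values below 0 in its row and column above it.

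The genes most like Aspn over the 12 libraries, among 9210 others with a mean of at least 10 CPM, were Gulp1 (Pearson r 0.99), Trip13 (0.97), Cd59a (0.96), Depdc1a (0.96) and Stard4 (0.96). In all, 86 genes had an r above 0.9 with Aspn, as a description over libraries of 4 groups.

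Of 9 listed relatives outside the family's 9 genes, 6 were tested in the Nrf2 comparison and 0 passed the threshold in edgeR, DESeq2 or limma, with 1 higher and 0 lower at an unadjusted p under 0.05. That gene was Chad, chondroadherin of cartilage, at 1.01 (SE 0.36, adjusted p 0.0941). Between the controls 2 of 5 tested were higher in labelled knockout in edgeR, Chadl at 0.68 (SE 0.21, adjusted p 0.0268) and Tsku at 0.27 (SE 0.07, adjusted p 0.0136). These 3 genes are named after their values were seen. Kera, Epyc and Nyx did not pass the filter on low counts.

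Counts in these lists stand beside the shares called over all genes, 3.47% higher and 1.28% lower with D29H, 3.77% and 2.40% with R554Q and 11.7% and 11.4% between the controls. At an unadjusted p under 0.05 those shares were 12.6% and 10.3% in the first of these and 12.8% and 11.4% in the second. Among the genes that build glycosaminoglycan chains, 1 of 27 tested rose and 1 fell in the Nrf2 comparison, and the median was -0.09. At an unadjusted p under 0.05, 7 of the 27 were lower and 2 higher. Chst7, a chondroitin sulfotransferase, fell by 0.58 on the log2 scale (SE 0.11, adjusted p 0.00452) and was at 0.13 (SE 0.10) in the Keap1 comparison. Chpf2, which takes part in chondroitin polymerisation, rose by 0.36 (SE 0.10, adjusted p 0.0376) and was at 0.57 (SE 0.09) in the Keap1 comparison. Of 26 such genes tested in the Keap1 comparison 2 were higher (Chpf2 and Chpf, the latter named after its value was seen) and 0 lower in edgeR, with 5 higher and 1 lower at an unadjusted p under 0.05. Between the controls 4 of 26 were higher and 7 lower in labelled knockout, against 11.7% and 11.4% of all genes.

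Among 16 collagens and collagen partners of the family, 12 had a log2 fold change below 0 in the Nrf2 comparison (median -0.17), and 1 passed the threshold, against 4 lower and 0 higher at an unadjusted p under 0.05. That gene was Eln, for elastin, at -0.35 (SE 0.10, adjusted p 0.04), with -0.39 (SE 0.15) in the Keap1 comparison. Col1a1 was at -0.18 (SE 0.14, adjusted p 0.46) and 0.00 (SE 0.10) in the same order; it is given here, with Col3a1 and Eln below, after the values were seen. Between the controls 11 of the 16 were higher in labelled knockout and 0 lower, with a median of 0.39, including Eln at 1.42 (SE 0.13, adjusted p 1.6e-06) and Col3a1 at 1.01 (SE 0.08, adjusted p 4.4e-07).

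Proteases that process or cleave the family had 2 of 12 tested genes higher and 1 lower in the Nrf2 comparison. Bmp1, whose protease removes the propeptide of biglycan, rose by 0.42 (SE 0.12, adjusted p 0.0372), with 0.31 (SE 0.10) in the Keap1 comparison. Mmp3, stromelysin, rose by 0.54 (SE 0.11, adjusted p 0.00904), with 0.22 (SE 0.14) in the Keap1 comparison. Adamts1, a matrix protease, fell by 0.37 (SE 0.10, adjusted p 0.0388), with -0.08 (SE 0.08) in the Keap1 comparison.

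Of 18 other matrix and cell surface proteoglycans tested, 3 fell and 0 rose in the Nrf2 comparison in edgeR (median -0.16). They were the syndecan Sdc4 at -0.48 (SE 0.11, adjusted p 0.0163) and the glypicans Gpc3 and Gpc4 at -0.42 and -0.40 (adjusted p 0.0499 and 0.0354). Their values in the Keap1 comparison were -0.36, -0.20 and -0.09. At an unadjusted p under 0.05, 5 of the 18 were lower and 0 higher, and DESeq2 and limma called 3 and 2. Of 17 such genes tested in the Keap1 comparison 1 was higher and 3 were lower in edgeR. Gpc1 was higher, at 0.47 (SE 0.09). Spock3 at -0.81 (SE 0.14), Sdc4 at -0.36 (SE 0.10) and Sdc2 at -0.29 (SE 0.09) were lower. Gpc1, Spock3 and Sdc2 are named after their values were seen.

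TGF-beta and BMP signalling genes, whose ligands several members bind, had 0 of 22 called in the Nrf2 comparison in edgeR and limma and 1 in DESeq2, with 4 higher and 2 lower at an unadjusted p under 0.05. In the Keap1 comparison 4 were higher and 1 lower in edgeR; their names are given after the values were seen. The higher ones included 3 latent TGF-beta binding proteins, which hold the growth factor in the matrix: Ltbp3 at 0.42 (SE 0.08, adjusted p 0.00574), Ltbp4 at 0.40 (SE 0.12, adjusted p 0.0458) and Ltbp2 at 0.30 (SE 0.08, adjusted p 0.0338). The others were Smad3, a signal transducer of the pathway, at 0.26 (SE 0.08, adjusted p 0.0467), and the matricellular target gene Ctgf, which was lower at -0.38 (SE 0.08, adjusted p 0.00916). Receptors reported for soluble members had 0 of 13 called in the Nrf2 comparison in edgeR and limma and 2 in DESeq2, with 1 higher and 2 lower at an unadjusted p under 0.05. In the Keap1 comparison 1 of 14 was called, the hyaluronan receptor Cd44 at -0.43 (SE 0.11, adjusted p 0.0237), named after its value was seen.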

How the data were processed

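RNA sequencing of 12 libraries was used as 2 deposited tables, 1 for each allele. The authors deposited, per the file headers, read counts and FPKM per library, group means on a signal scale of normalised counts, log2 fold changes and p-values with their adjusted values. STAR, DESeq2 and mm10 are named in the submitters' processing notes, with no role or version; the counter, the annotation and the use of strand are not given in the sources used here. Libraries were made with an RNA kit whose use of strand is not stated, per the labels' protocols, and 0 columns of per-sample values were left unused.

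From the counts, genes were filtered with filterByExpr, scaled with TMM factors and tested with edgeR 4.0.16 (quasi-likelihood test, Benjamini-Hochberg adjustment over all genes tested, threshold 0.05) in R 4.3.3, each comparison on its own 6 libraries. Levels are CPM over the listed gene length in kilobases, scaled over the 12 libraries; log2 CPM used a prior count of 2. Alternatives were DESeq2 1.42.0, limma 3.58.1 with trend, other scaling factors and filters (a mean count of at least 50, or none), a length offset, a replicate block, 1 fit over 12 libraries and leaving out each library. An offset for GC content and length was chosen after seeing the data. The fits were also run on simulated data, but the outcome is not reported here and no value above rests on it.

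All 9 members are named. Other genes are named from fixed lists where they passed the threshold in the Nrf2 comparison (at most 4 a list), as overlapping genes, or as the 5 genes most like Aspn. Single marker genes come from fixed marker lists and were picked after their values were seen, and the text says so of other names. The members and lists were chosen with earlier results of these data known.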

Additional observations from a re-analysis of the deposited data

How the results depend on the processing

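In the Nrf2 comparison 2 members were called lower with 9 of the 10 alternatives that keep all libraries and 3 with no filter on low counts, and 1 to 5 when any single library was dropped; 0 were called higher in any. Dropping single libraries turned the sign of Lum (-0.26 to 0.057; above 0 without labelled-knockout replicate 3) and of Omd (-0.061 to 0.13; below 0 without D29H replicate 2 and, at -0.033, without labelled-knockout replicate 3), with no value past the threshold. In the Keap1 comparison 1 member was called lower, 2 with no filter, and 1 to 3 when any single library was dropped (3 without R554Q replicate 3, where genes called lower over the whole table went from 339 to 1342). There the GC and length offset moved Aspn to -0.61, Prelp to -0.33 and Ogn to -0.14 and turned Dcn (0.032) and Podn (-0.053). Omd ranged from -0.20 to 0.34 and Podn from -0.053 to 0.22 over the Keap1 alternatives, both changing sign. Between the controls 6 or 7 members were called higher under all alternatives, and 0 lower with DESeq2, limma, upper-quartile factors, no filter, a mean count of at least 50, 1 fit over 12 libraries or the replicate block, and 0 to 1 when any single library was dropped. Bgn turned to 0.0045 with no filter and ranged from -0.081 to 0.060 when a single library was dropped, above 0 without wild-type replicate 2 (0.0077) or labelled-knockout replicates 1 (0.060) and 2 (0.00087). The cause of these changes was not tested. Omd had 522 reads in all, the fewest of the members. With a mean count of at least 50 it had no value between the controls or in the Keap1 comparison. Lum had no value under that filter in the Keap1 comparison.

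Same-numbered libraries did not deviate together (r of -0.10, -0.07 and -0.02 for the Nrf2 groups, 0.03, -0.17 and -0.02 for the Keap1 groups and 0.03, -0.05 and -0.03 between the controls). So few values cannot exclude that the numbers pair the libraries, and the labels do not say how replicates arose. With the replicate block the Nrf2 comparison gave 524 genes higher and 204 lower (498 and 184 without it) and still 2 members lower, with Prelp at -0.68 and Aspn at -0.41; the Keap1 comparison gave 327 and 157 (533 and 339 without it) and 1 member lower; the controls gave 1584 and 1552 (1661 and 1610 without it), with 7 members higher and 0 lower.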
